A study of Oryza sativa with 8 samples.

Results

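Among the abundant transcripts of rice seedlings, 132 table rows held a nearly constant share of the RNA-seq counts through drought and rewatering. They were chosen by the measured values themselves. A row is 1 gene ID of the deposited count table, and its level is given as CPM, the count divided by the library total and multiplied by 1000000. A row was taken as abundant when its mean over the 6 wild type libraries was at least 100 CPM, which 2145 of the 59903 rows reached. It was taken as steady when its highest CPM of the 6 was at most 25% above its lowest, which 132 of the 2145 rows (6.15%) met. Because the choice used every wild type value, the levels and differences of these rows describe the choice and are no independent sign of stability.

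The wild type plants were MH63, a variety of Oryza sativa, and total RNA of seedlings was sequenced. Normal wild type plants were watered throughout, beyond the first 14 days. Drought wild type plants had water withheld for 15 days after those 14, with soil water held near 5% at the end, and were collected together with the normal plants. Recovery wild type plants went through the same drought, were watered again for 4 days and were collected after that, while normal plants of that later date were not analysed here. The remaining pair of libraries came from plants in drought that the labels call osbzip23, after the bZIP transcription factor OsbZIP23, and it took no part in the choice. Each group had 2 libraries. The labels call them biological replicates from different batches, each of many seedlings pooled, and do not say which batch a replicate number marks, so a p-value measures the spread between these libraries only.

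Plants that lose water close their stomata, produce abscisic acid and rebuild much of their transcriptome, lowering photosynthesis and growth genes and raising protective ones. Against this, some genes of basic cell upkeep, such as those for actin, ubiquitin or translation elongation factors, are commonly used as internal standards in rice because their transcripts are expected to change little. A steady CPM means a steady share of the sequenced RNA. In whole seedlings, fewer cells of a type and less RNA per cell cannot be told apart.

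The steady rows could not be named. The count table pairs no ID with a name, and 0 of its IDs were found in RefSeq's list of 39387 rice genes (assembly ASM3414082v1), so 14 commonly used reference genes could not be looked up among them. An ID therefore stands for a row of the table, and neither tissue markers nor the functions of these rows were checked. The wild type libraries held between 37400784 and 42894245 counts, and the 6 columns correlated with each other across rows at r = 0.906 to 0.998 on the log2(CPM + 1) scale, over the first 40897 rows (up to the final count of wild type drought replicate 1). Over the same rows, osbzip23 replicate 1 and wild type drought replicate 1 correlated at r = -0.011, while the osbzip23 replicates correlated at 0.988. These are correlations across genes, which are not independent replicates. Rows thus lined up among the wild type columns but not between the genotypes.

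Mean levels of the 132 rows ran from 100.1 to 888 CPM, with a median of 147 and quartiles of 119 and 220 CPM. Together they took 2.61% ± 0.0122 of all counts in normal plants, 2.51% ± 0.0493 in drought and 2.46% ± 0.00833 in recovery (SD, n = 2 each). The rows thus kept their joint share within the narrow band that the choice required, with the highest sum in normal plants. In a single library, a steady row held from 3482 to 40939 counts. At the lowest of these, counting error alone has a coefficient of variation of 1.69% in a single library. That is a different measure from the allowed range of 25% over 6 libraries. Replicates of the steady rows differed beyond counting error, with chi-square over degrees of freedom of 10.68 in normal, 14.41 in drought and 4.52 in recovery.

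Steadiness itself varied among them. The highest CPM stood a median of 18.8% above the lowest, and the smallest such gap was 4.26%. Of the 132 rows, 12 stayed within 10%, 39 within 15% and 77 within 20%, leaving 55 between 20% and the limit. The steady rows formed the low edge of a continuous distribution and no separate class. The last row inside the limit had its highest library 24.87% above its lowest at a mean of 111 CPM, and the first row outside it had 25.04% at 113 CPM. At the CPM floor, the last row inside had a mean of 100.1 CPM, and the nearest steady row outside had 99.2 CPM.

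**Figure D1:**
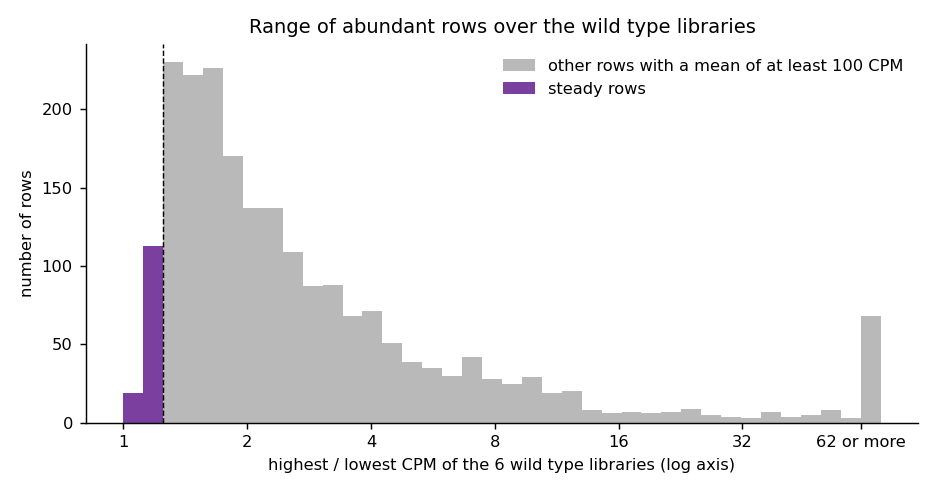
Histogram of the ratio of the highest to the lowest CPM over the 6 wild type libraries (log axis) for the 2145 rows with a mean of at least 100 CPM, with the 132 steady rows in purple and the limit as a dashed line. The steady rows are the left edge of a distribution whose median is 2.11, and the last bar gathers all rows beyond the axis.

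Most abundant rows moved far more. Over all 2145, the median ratio of highest to lowest CPM was 2.11, with quartiles of 1.52 and 3.83. The ratio was above 2 in 1134 rows (52.9%) and above 10 in 202, and 9 rows had no count in at least 1 wild type library. Group means showed the same contrast. The highest group mean exceeded the lowest by a median of 14.3% among the steady rows, against a median ratio of 2.01 among all abundant rows.

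The share of steady rows changed with the level. It was 6.85% of the 1314 rows from 100 to 200 CPM, 6.08% of the 625 rows from 200 to 500 CPM and 3.2% of the 125 rows from 500 to 1000 CPM. None of the 81 rows at 1000 CPM or more met the limit. The steadiest of these still had a highest library 1.461 times its lowest, and their median ratio was 6.04. Just under the floor, 6.62% of the 4937 rows from 30 to 100 CPM would have met the limit, and 4.53% of the 4926 rows from 10 to 30 CPM. These shares are counts of rows within these 6 libraries and were not tested.

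The most abundant steady row, OsMH_07G0402700, was at 989 and 996 CPM in normal plants, 825 and 809 CPM in drought, and 849 and 860 CPM in recovery. Normal plants were highest, and no group overlapped another. The next, OsMH_06G0166800, was at 879 and 780 CPM in normal, 789 and 750 CPM in drought, and 866 and 927 CPM in recovery. Its higher normal library lay between the recovery libraries and its lower one between the drought libraries, while both recovery libraries were above both drought libraries.

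The smallest range belonged to OsMH_01G0206700, with 129.6 and 129.3 CPM in normal, 133.2 and 129.9 CPM in drought, and 127.9 and 133.4 CPM in recovery. Its recovery replicates enclosed all 4 other values, and only drought and normal did not overlap. OsMH_09G0117400 followed, at 289 and 291 CPM in normal, 305 and 299 CPM in drought, and 296 and 298 CPM in recovery. These groups did not overlap, although drought was only slightly above recovery and recovery slightly above normal.

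Of the steady rows that passed the test between drought and normal watering, OsMH_02G0511700 and OsMH_06G0437800 rose most. OsMH_02G0511700 went from 205 and 203 CPM in normal to 240.5 and 239.4 CPM in drought, and stood at 211 and 201 CPM in recovery, where it overlapped normal in CPM. OsMH_06G0437800 went from 176 and 175 CPM to 197.5 and 214.9 CPM and stood at 197.8 and 193.6 CPM in recovery. Its recovery libraries were above both normal ones, and 1 of them slightly exceeded the lower drought library. The falls were led by OsMH_04G0168300, from 236 and 238 CPM to 197 and 192 CPM, with 194 and 204 CPM in recovery, and by the most abundant row OsMH_07G0402700. In recovery both were still below both normal libraries in CPM.

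**Figure D2:**
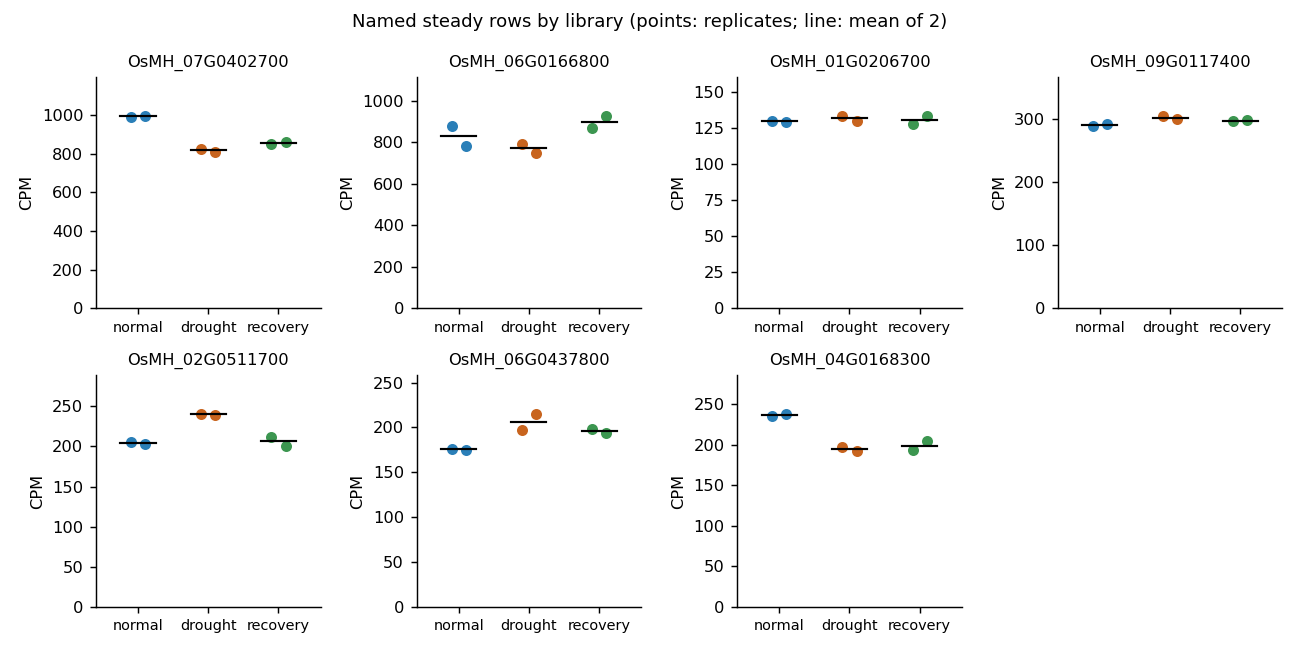
CPM of the 7 named steady rows in each wild type library (points: replicates, line: mean of 2), on axes from 0. OsMH_01G0206700 and OsMH_09G0117400 are close to flat, OsMH_02G0511700 has its highest values in drought, and OsMH_07G0402700 is highest in normal plants.

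Differences within the 25% limit were often larger than those between replicates. Among the steady rows the replicates differed by a median of 3.4% in normal, 4.79% in drought and 2.2% in recovery, close to the 3.27%, 4.84% and 2.9% of all abundant rows. The largest replicate gap of a steady row was 23.2%, in drought. In 112 of the 132 rows (84.8%) the gap between the highest and lowest group mean exceeded the largest gap between replicates. The same held for 2116 of the 2145 abundant rows (98.6%).

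The small differences had a common direction in CPM, as did the tested rows as a whole. Normal plants had the highest group mean in 79 of the 132 rows, drought plants in 39 and recovery plants in 14. Recovery was lowest in 72, drought in 44 and normal in 16. The most frequent orders were normal over drought over recovery, with 44 rows, and normal over recovery over drought, with 35. Relative to each row's own 6-library mean, the median row stood at 3.55% and 5.4% in the normal replicates, 1.24% and -2.56% in drought, and -4.45% and -3.85% in recovery. Every value of a steady row lay between -13.5% and 14.5% of its mean. With library totals, the median log2 fold change over all 22898 tested rows was -0.08 in drought against normal. It was -0.123 in recovery against drought and -0.187 in recovery against normal. Among the steady rows these medians were -0.072, -0.051 and -0.106. Among the abundant rows the log2 ratios of mean CPM had medians of -0.253, 0.02 and -0.178. All tested rows thus leaned the same way as the steady rows in each comparison. The abundant rows did so in both comparisons against normal but not in recovery against drought. The lean against normal is therefore not particular to the steady rows.

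**Figure D3:**
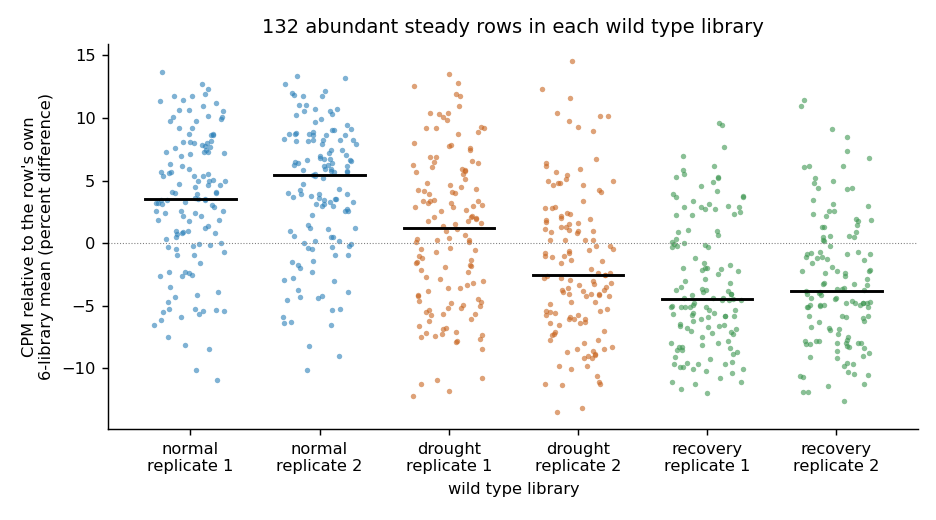
Percent difference of each of the 132 steady rows from its own mean over the 6 wild type libraries (points), with the median row as a black line. The medians are 3.55% and 5.4% in normal, 1.24% and -2.56% in drought, and -4.45% and -3.85% in recovery, and the groups overlap widely.

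In single rows, the groups were often apart in CPM, meaning that both libraries of one group were above both of the other. Drought and normal were apart in 87 of the 132 rows, 22 with drought higher and 65 with drought lower, beside 72.4% of all rows with a wild type count. That is 65.9% of the steady rows, where 95.2% of the 2145 abundant rows were apart, 809 with drought higher and 1232 with drought lower. Recovery and drought were apart in 95 rows, 35 higher and 60 lower in recovery, beside 73.8% of all rows and 95.3% of the abundant ones. Of the abundant rows, 1043 were apart and higher in recovery and 1002 lower. Recovery and normal were apart in 101 rows, 13 higher and 88 lower in recovery (76.5% of the steady rows), beside 59.8% of all rows and 91.4% of the abundant ones. Here 588 abundant rows were apart and higher in recovery and 1373 lower. The choice of rows used these values, so nothing is read from the counts.

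This direction depended on how the libraries were scaled. CPM divides by the library total, whereas TMM (edgeR's trimmed mean of M-values) divides by a factor that holds the bulk of rows level. Relative to library totals, TMM moved log2 fold changes by 0.077 for drought against normal, by 0.114 for recovery against drought and by 0.19 for recovery against normal, toward higher values in the group named first. Median-of-ratios scaling moved them by 0.064, 0.147 and 0.211. These shifts are large beside the limit itself, since 25% is 0.32 on the log2 scale.

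Applied to TMM-scaled values, the rule took 239 rows, of which 106 were among the 132. With median-of-ratios scaling it took 241 rows, sharing 102. A core of 101 rows met the rule under all 3 scalings. Of the rows steady under TMM, 44.4% were among the 132, and 80.3% of the 132 were steady under TMM.

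Drought against normal watering was tested with edgeR's quasi-likelihood test on the 6 wild type libraries with TMM, adjusted by the Benjamini-Hochberg method over 22898 rows, and a row was called at an adjusted p under 0.05. All 132 steady rows passed the filter on low counts. In drought 47 of them were called, 27 higher and 20 lower, beside 72.7% of all tested rows (35.3% higher and 37.3% lower) and 90.4% of the abundant ones. The 2 largest rises, of OsMH_02G0511700 and OsMH_06G0437800, were log2 fold changes of 0.31 ± 0.047 (SE, adjusted p = 6.84e-05 by edgeR) and 0.31 ± 0.053 (adjusted p = 2e-04 by edgeR). The falls of OsMH_04G0168300 and OsMH_07G0402700 were -0.21 ± 0.045 (adjusted p = 0.00126 by edgeR) and -0.20 ± 0.037 (adjusted p = 0.000277 by edgeR). With library totals alone the calls were 13 higher, beside 32.7% of all rows, and 45 lower, beside 39.6%. The rule used this contrast, and nothing is read from these counts.

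Recovery against drought showed 55 of the 132 rows called, 48 higher and 7 lower in recovery, beside 75.5% of all rows (38.2% higher and 37.3% lower) and 90.5% of the abundant ones. The steady row OsMH_06G0166800 had a log2 fold change of 0.33 ± 0.056 (adjusted p = 0.000141 by edgeR), while OsMH_07G0402700 rose by 0.18 ± 0.037 (adjusted p = 0.000753 by edgeR). Library totals turned the split to 16 higher and 41 lower, beside 35.4% and 41%, and left OsMH_07G0402700 uncalled at 0.065 (adjusted p = 0.121 by edgeR). Which way most of these rows moved on rewatering therefore depended on the scaling.

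Recovery against normal watering gave 40 calls among the 132 rows, each higher in recovery and none lower, beside 34.8% of all rows (18.1% higher and 16.7% lower) and 64.4% of the abundant ones. With library totals alone there were 6 higher, beside 11.6% of all rows, and 56 lower, beside 32.1%. The flattest row in CPM, OsMH_01G0206700, was called higher in recovery under TMM, at a log2 fold change of 0.20 ± 0.048 (adjusted p = 0.00593 by edgeR), and stood at 0.013 with library totals (adjusted p = 0.857 by edgeR). OsMH_02G0511700, which overlapped normal in CPM, was likewise called higher in recovery under TMM, at 0.20 ± 0.047 (adjusted p = 0.00491 by edgeR), and stood at 0.015 with library totals (adjusted p = 0.827 by edgeR). Its recovery value against drought was called lower with library totals (-0.22, adjusted p = 0.000835 by edgeR) and not with TMM (-0.10, adjusted p = 0.0613 by edgeR). From TMM to library totals, OsMH_04G0168300 shifted downward like these rows, but it gained a call in recovery against normal. It went from -0.063 under TMM (adjusted p = 0.318 by edgeR) to -0.25 with library totals (adjusted p = 0.000902 by edgeR). The median log2 fold change of the 132 rows was 0.084 under TMM, and 0.073 to 0.079 when 1 normal or recovery library was left out.

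A row that misses the threshold is not shown to be equal between groups, so the interval of each difference was counted as well. Under TMM the 95% interval of the log2 fold change lay within the 25% limit in both directions for 120 of the 132 rows in drought against normal, 108 in recovery against drought and 111 in recovery against normal. In all 3 comparisons this held for 91 rows, and 53 rows were called in none of them. With library totals alone, 77 rows had all 3 intervals inside and 28 rows were called in none. The median distance from an estimate to either end of its interval was 0.112 on the log2 scale, and the median standard error was 0.051. Estimates beyond the limit occurred in 0, 5 and 5 rows. Among all 2145 abundant rows, 15.3%, 14.9% and 47.8% had such intervals in the same 3 comparisons. Over all 22898 tested rows they numbered 1509, 1319 and 4334. Rows with all 3 intervals inside, or called in none, were not counted beyond the 132. Nothing particular to the steady rows is therefore read from those 2 counts. The 132 rows were picked for lying close together, so their intervals describe precision and are not a test.

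The 79 rows called at least once showed 12 patterns of calls, of which the 3 most frequent held 45 rows and the other 9 held 34. In 16 rows drought was lower than normal and recovery higher than drought, with no call between recovery and normal, as in OsMH_07G0402700. Another 16 rows were higher in recovery than in both other groups with no call between drought and normal, as in OsMH_06G0166800. A further 13 rows were higher in both drought and recovery than in normal with no call between drought and recovery, as in OsMH_06G0437800 and OsMH_02G0511700. These patterns are those under TMM and share the scaling limit above. Patterns were not counted over all tested rows, of which 72.7%, 75.5% and 34.8% were called in the 3 comparisons. Nothing particular to the steady rows is therefore read from them.

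**Figure D4:**
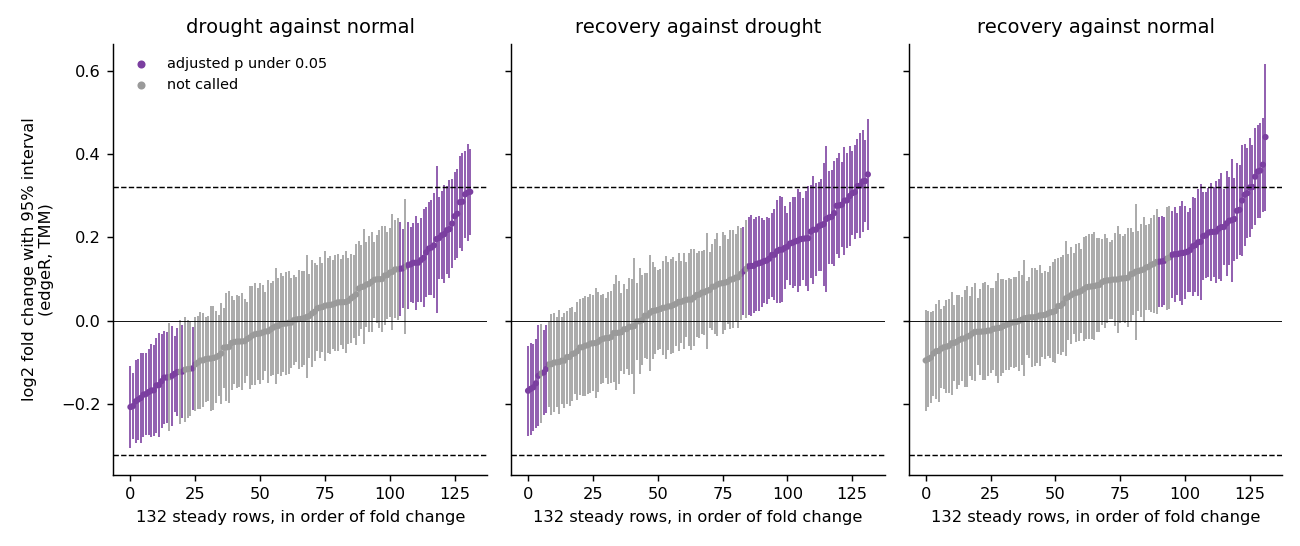
Log2 fold changes of the 132 steady rows with 95% intervals in 3 comparisons (edgeR, TMM), each panel in order of fold change, with called rows in purple and the 25% limit (0.32) as dashed lines. Intervals stay inside the limit for 120, 108 and 111 rows, and no call lies below 0 in recovery against normal.

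Leaving a library out of the rule gives its values as a measure that the choice did not use. Rows chosen on the other 5 libraries numbered 142 to 170. Once the left-out library was added back, 89.4% and 76.0% of them kept within 25% for normal replicates 1 and 2, 76.5% and 82.8% for drought, and 86.2% and 87.3% for recovery. The rows that kept within 25% numbered 127 for each normal replicate, 130 for each drought replicate and 131 for each recovery replicate. By construction, rows within 25% over all wild type libraries are nearly the steady rows again. These shares therefore mostly follow the set sizes and are no separate sign of stability. No row chosen on 5 libraries differed more than 2-fold in the left-out library. Each left-out library had a partner of the same group among the 5.

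Leaving out a whole group left both libraries of a condition outside the choice. Rows with a mean of at least 100 CPM and within 25% over the 4 normal and recovery libraries numbered 1001. When the drought libraries, not used in this choice, were added, 128 of these (12.8%) were still within 25%. In the others the drought mean lay below that of the 4 chosen libraries in 660 rows (65.9%) and above it in 213 (21.3%). The median drought level was -0.59 on the log2 scale against the other 4 libraries in CPM, and 401 rows (40.1%) were more than 2-fold away, 352 lower and 49 higher. Regardless of sign, the median difference was 0.78. For all 2145 abundant rows it was 0.783 in drought against normal under TMM. These measures differ in scaling and reference group, and nothing particular to the 1001 rows is read from the shift.

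By edgeR with TMM, 907 of the 1001 rows were called between drought and normal, 237 higher and 670 lower in drought, beside 72.7% of all tested rows and 90.4% of the abundant ones. The normal libraries are part of both the choice and this comparison. The called share of the 1001 rows was 90.6%, and these rows overlap with the abundant ones. Under TMM scaling of the rule, 1186 rows were steady between normal and recovery, and 236 of them (19.9%) stayed so in drought. The median drought level against the other libraries was then -0.29 on the log2 scale, and -0.27 with median-of-ratios scaling.

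The other groups left smaller sets. Over the drought and recovery libraries alone 330 rows were steady, of which 125 (37.9%) stayed so with the normal libraries, while 179 were higher there. Over the normal and drought libraries 422 rows were steady, of which 134 (31.8%) stayed so in recovery, while 267 were lower there. In CPM, the normal and recovery libraries thus shared more steady rows than either shared with drought. The rows that stayed steady numbered 128, 125 and 134 when drought, normal or recovery was added back. The shares therefore mostly follow the set sizes of 1001, 330 and 422 and are no separate observation. For the sets chosen without normal or recovery, other scalings were not run.

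**Figure D5:**
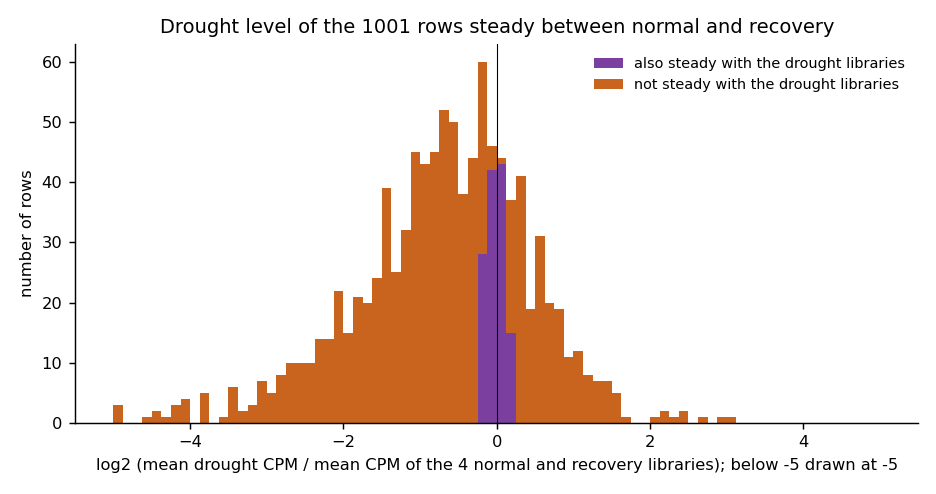
Mean drought level relative to the 4 normal and recovery libraries (log2 ratio of mean CPM) for the 1001 rows steady over those 4, with rows also steady in drought in purple. The 128 purple rows sit around 0, and 352 rows lie more than 2-fold below.

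In osbzip23 plants the same 132 rows gave no measure of their stability, because rows did not correspond between the genotypes. Of the 132, 58 had no count in either osbzip23 library and 98 were below 10 CPM on average, with a median of 0.103 CPM. An osbzip23 mean within 25% of the wild type drought mean was found in 4 rows. Together the rows held 0.231% ± 0.00976 of the osbzip23 counts (SD, n = 2), against 2.51% ± 0.0493 in wild type drought. No effect of the genotype is drawn from them.

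The labels of the steady rows named chromosomes 1 to 11, from 27 rows on chromosome 1 to 1 row on chromosome 11, which also has the fewest abundant rows among these, 40. No abundant row had a chromosome 12 label, so no steady row could have one. No 2 steady rows were neighbours in the table. The 2145 abundant rows formed 178 neighbouring pairs, but only 132 of those rows were steady, so these counts are not comparable. As the labels are not evidence of which gene was counted, no position is drawn from them.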

How the data were processed

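RNA-seq was analysed for 8 samples in 4 groups of 2. The authors deposited whole-number counts per gene row, 1 column per sample, per the file headers, without normalization. Tools listed in the submitters' processing notes are StringTie 2.1.7, STAR 2.7.10a and fastp 0.23.0. The genome build, annotation, strand setting and treatment of multi-mapping reads are not given in the sources used here, so rows of gene copies or overlapping genes are uncertain. The members and lists were chosen with earlier results of these data known.

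Library totals served for CPM (Python 3.11.15, NumPy 2.4.6, pandas 2.3.3). Differences were fitted with edgeR 4.0.16 in R 4.3.3 (TMM, filterByExpr, two-sided quasi-likelihood F-test, 3 residual degrees of freedom, Benjamini-Hochberg adjustment) on the 6 wild type libraries, since osbzip23 rows did not correspond. The fit was also run on simulated counts in which few rows changed. Far more rows were called in these data, so that run does not check the scaling. Standard errors were computed as the absolute log2 fold change divided by the square root of F. Tests and intervals used the fit's total degrees of freedom, which add prior ones from spread shared across rows. The named rows are the 2 with the highest mean, the 2 with the smallest ratio, and the 2 largest called rises and falls in drought, 7 in all. Other settings were median-of-ratios factors, library totals, other filters, DESeq2 1.42.0, other sample sets, a replicate block, other limits, and each library left out. The 2 libraries of a group differed beyond sampling noise in every group (chi-square over degrees of freedom, 4.55 to 26.64), and each counts as its own replicate.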

Additional observations from a re-analysis of the deposited data

How the results depend on the processing

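The number of steady rows followed the rule. It was 12 at a limit of 10% and 507 at 50%, 315 at a floor of 50 CPM and 42 at 200 CPM, and 215 on group means. It was 239 with TMM and 241 with median-of-ratios scaling. Without the normal, drought or recovery group it was 330, 1001 or 422, and with 1 library left out 142 to 170.

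For calls among the 132 rows, the fit of all 8 libraries gave 13 in drought against normal, 23 in recovery against drought and 6 in recovery against normal, and 49 rows with all 3 intervals inside the limit. Over all 33074 rows of that fit the calls were 13955, 14901 and 3231. The main fit called 16641, 17277 and 7968 of 22898 rows, so calls fell across the whole table. Library totals gave 62 calls in recovery against normal, beside 10002 of all 22898 rows. Leaving out 1 library gave 27 to 47, 37 to 53 and 19 to 45 calls, and 76 to 91 rows with all intervals inside. A fit left with 1 library in a group assumes that it varies like the others. Calls over all tested rows also fell in each comparison of a group left with 1 library. The total calls per comparison and the rows with all 3 intervals inside stayed within 1.5 times the reported counts under the other alternatives run. Rows called in none numbered 28 with library totals and 99 with all 8 libraries, against 53.

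The share of rows steady in normal and recovery that stayed so in drought was recomputed under settings chosen after seeing the data. It was 19.9% with TMM, 20.3% with median-of-ratios scaling, 3.95% at the limit of 10%, 30.8% at 50%, 15.1% at 50 CPM and 10.4% at 200 CPM. With 1 library left out it was 13.9% to 16.8%. The causes of these moves were not tested, beyond what each setting changes by construction.

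The replicate block gave 42, 51 and 34 calls among the steady rows, beside 16283, 16922 and 7424 of all 22898 rows. Deviations of same-numbered replicates correlated at -0.081, -0.017 and 0.095 between the groups, so the numbers were not taken as pairs. Among 294 recomputed fold changes of the named rows, 20 lost and 13 gained a call, and 0 changed direction with a call. Precision is limited by 2 libraries per group.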
